A study of Mus musculus with 64 samples.

Results

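The Period genes Per1, Per2 and Per3 and the cryptochrome genes Cry1 and Cry2 were followed in mouse gastrocnemius muscle. They were taken by gene symbol from a table of read counts for 55401 genes, and all 5 members were found and passed the filter on low counts that 15241 genes passed. The fl/fl mice carried floxed Hif1a alleles without Cre, and the HIF1α KO mice carried the same alleles with a heterozygous Cre transgene under the HSA (human skeletal α-actin) promoter, which deletes Hif1a in muscle fibers and leaves it in the other cells of the muscle. All mice were of C57BL/6JBomTac background. At ZT3 (zeitgeber time, hours after lights on, thus in the light phase) or ZT15 (in the dark phase) the mice ran on a treadmill for 60 min at 16 m/min and a 5% incline, or were given a sham treatment and are called sedentary. Muscle was taken 3 h later, so that a run that began at ZT3 or ZT15 was followed by collection at about ZT7 or ZT19. Genotype, time and treatment gave 8 groups of 8 mice, with equal numbers of males and females, apart from exercised HIF1α KO mice at ZT3, of which 7 were used and 1 library of 382 counts was left out.

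PER and CRY proteins form the negative limb of the circadian clock. The transcription factors BMAL1 (gene Arntl) and CLOCK or NPAS2 bind E-box motifs and activate the Per and Cry genes, and the PER and CRY proteins, after a delay set in part by casein kinases and ubiquitin ligases, enter the nucleus and repress their own activators. A further loop of REV-ERB and ROR nuclear receptors controls Arntl and Cry1, and the D-box factors DBP, TEF and HLF, opposed by E4BP4 (Nfil3), add another input, while Per1 and Per2 are also known to be induced directly by cAMP and glucocorticoid signals. The questions put to the data were whether these transcripts followed time of day, the run and the loss of HIF1α.

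The promoter sequences of the members that followed time of day are shown because E-box and D-box motifs can be read in them. Motifs of the REV-ERB and ROR receptors and of glucocorticoid signals were not searched. RefSeq promoter windows (250 bases before to 50 after each start, GRCm38.p6) were held for 4 of the 5 members, with 2 windows for Per1 and no entry for Per2. Of the 250 bases before each start, those ahead of any annotated exon base in the window are printed, 5′ to 3′ on the strand of the gene. Both Per1 windows lie inside the annotated span of Per1, which begins at base 69095217, and the upstream window is upstream only of the other. Capitals mark the motifs CACGTG (E-box), CACGTT or AACGTG (E-prime-box), TTATGTAA and TTATGCAA (D-box). These were searched on both strands together with the cAMP response element TGACGTCA.
Per3, chr4:151044666-151044915, minus strand: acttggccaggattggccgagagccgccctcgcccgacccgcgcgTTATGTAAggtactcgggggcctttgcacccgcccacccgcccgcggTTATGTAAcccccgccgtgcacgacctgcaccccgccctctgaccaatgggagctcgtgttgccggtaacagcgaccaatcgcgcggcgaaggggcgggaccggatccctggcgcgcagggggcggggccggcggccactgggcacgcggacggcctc
Cry1, chr10:85185065-85185304, minus strand: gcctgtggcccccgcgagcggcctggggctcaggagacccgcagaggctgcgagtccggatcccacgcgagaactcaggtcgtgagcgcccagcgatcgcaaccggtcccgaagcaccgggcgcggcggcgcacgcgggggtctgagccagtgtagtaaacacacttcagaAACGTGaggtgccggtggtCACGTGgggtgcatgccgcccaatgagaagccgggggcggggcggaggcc
Per1, upstream window, chr11:69098699-69098947, plus strand: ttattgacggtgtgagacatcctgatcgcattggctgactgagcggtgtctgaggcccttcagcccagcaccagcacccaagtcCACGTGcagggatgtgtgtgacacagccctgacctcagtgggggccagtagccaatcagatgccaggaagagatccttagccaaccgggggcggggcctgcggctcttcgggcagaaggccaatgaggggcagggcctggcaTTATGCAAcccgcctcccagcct
The Per3 window held TTATGTAA at 2 places, 205 and 158 bases before the start (position of the first base), a motif found in 0.938% of 32851 promoters of the same length. The Cry1 window held an E-box at 60 and an E-prime-box at 79 bases before the start, motifs found in 7.15% and 4.68% of promoters. The upstream Per1 window held an E-box 166 bases and TTATGCAA 24 bases before the start, the latter in 0.743% of promoters. The second Per1 window (chr11:69099902-69100201) held no motif of the set, and the Cry2 window (chr2:92434020-92434319) held an E-prime-box 166 bases before the start. TGACGTCA was in none of these 5 windows and in 1.79% of all promoters. The core of the HIF binding motif, ACGTG, lies within the E-box and the E-prime-box as spelled here, was in 19.6% of all promoters, and was found in the Per1 upstream, Cry1 and Cry2 windows only where they held one of these boxes. These are matches of letters and no binding was measured.

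Total counts per library ranged from 2359780 to 40377963 (median 16236352), and 3 libraries held under 5000000. Levels are given as CPM, the counts of a gene relative to the library total after scaling by the TMM method of edgeR, and comparisons as log2 fold changes from quasi-likelihood models in edgeR that included sex, with Benjamini-Hochberg adjustment of p over 15241 genes and a threshold of 0.1 on the adjusted p. Nothing in the labels says more of the mice of a group than that they were separate animals. Fast muscle markers stood for the labelled tissue, with Myh4 at 23182 to 89832 CPM. The kidney gene Umod was at 0 in all 63 libraries. The liver gene Alb was at a median of 1.01 CPM and at most 23.9 CPM. The counts of Hif1a were taken over the whole gene and were 25.9 to 57.3 CPM in fl/fl and 28.8 to 49.7 CPM in HIF1α KO mice, which does not check the deletion, because the floxed part is a single exon and transcripts without it are still counted. The mice were numbered across all groups, and in 4 blocks of 16 successive numbers 53.9% of all genes passed a test for block. The labels name no batch, so these blocks are only ranges of mouse numbers.

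All 5 transcripts were of similar and moderate abundance. Per kilobase of annotated exon (RPKM), the mean over 63 libraries was 3.68 ± 1.13 (SD) for Cry2, 3.47 ± 1.08 for Cry1, 2.96 ± 1.61 for Per1, 2.47 ± 1.16 for Per3 and 2.21 ± 0.740 for Per2. These means lay within 1 SD of their neighbors in that order. Raw counts behind a single value ranged from 22 (Cry1) and 29 (Per1) in the shallow libraries to 1750 (Per3), with medians of 161 for Cry1 and 322 for Cry2. The spread between mice of a group, as edgeR's biological coefficient of variation, was 0.454 for Per1, 0.349 for Per2, 0.296 for Cry2, 0.271 for Per3 and 0.149 for Cry1, against a median of 0.193 over all genes. Per1 was thus more variable between mice than 95.6% of all genes and Cry1 less variable than the median gene. Time of day took 68.8% of the variance of log2 CPM of Cry1 and 55.99% of that of Per3, but 13.2% for Per1, 2.30% for Per2 and 0.616% for Cry2. Block of mouse numbers had 4 levels and took the largest share among the 5 factors compared for Cry2 (41.2%), Per2 (22.1%) and Per1 (14.1%). Genotype took at most 1.17% for any member.

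**Figure D1:**
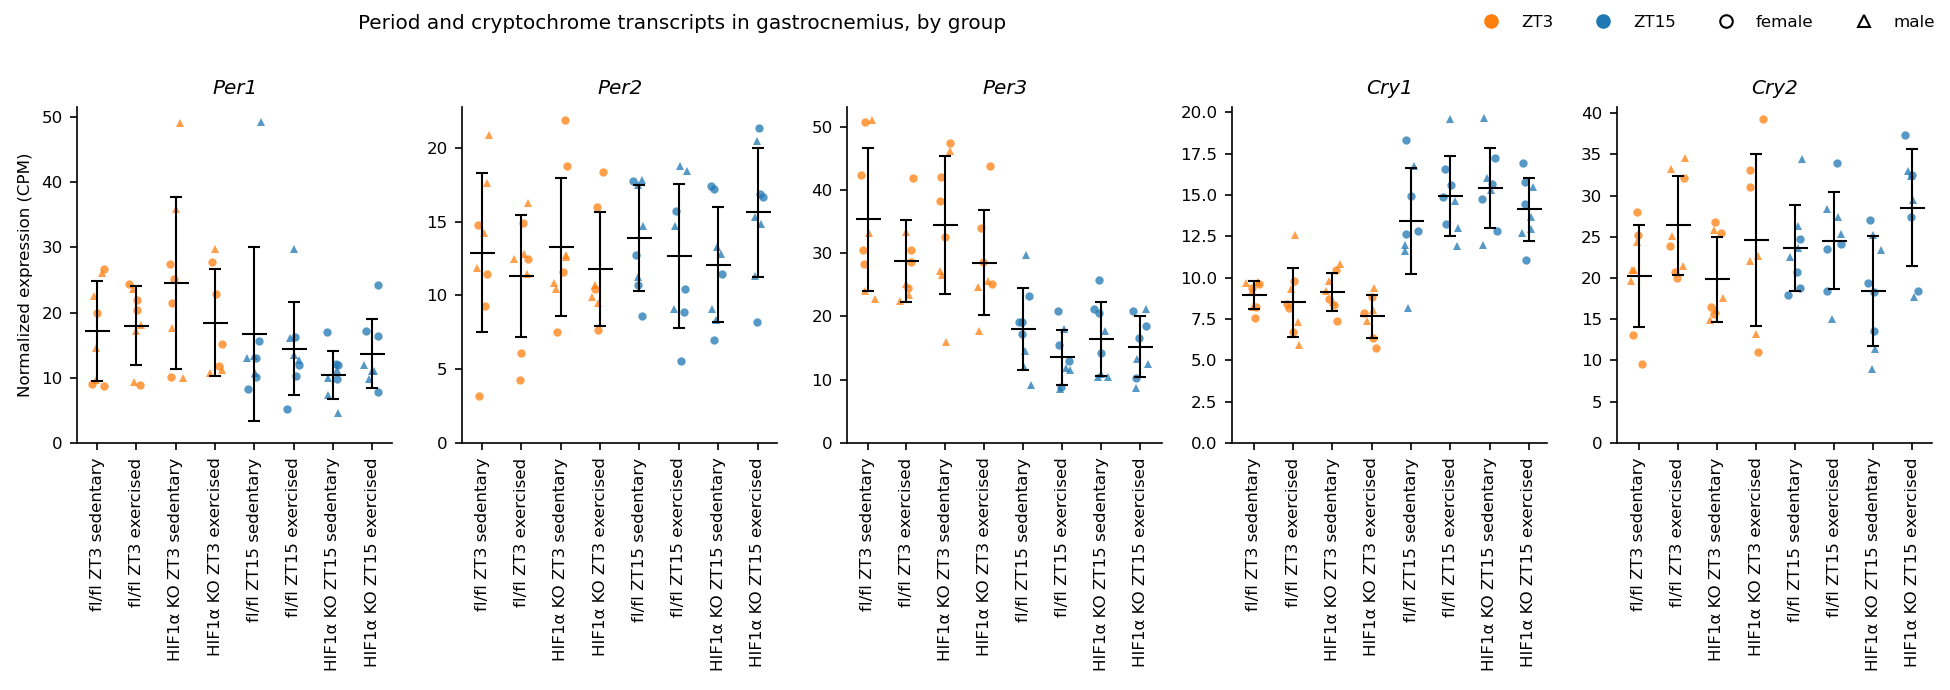
Normalized expression (CPM, vertical axes from 0, a scale for each gene) of the 5 members in each mouse of the 8 groups. Circles are females and triangles males, orange is ZT3 and blue ZT15, and bars are the mean and SD. Per3 was lower and Cry1 higher in the 4 groups at ZT15, whereas the groups of Per2 and Cry2 overlapped throughout.

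Time of day was associated with opposite differences in Per3 and Cry1, with a smaller difference in Per1, and with none past the threshold in Per2 and Cry2. Averaged over genotype and treatment, Per3 was 0.494 times as high at ZT15 as at ZT3, Cry1 was 1.72 times as high and Per1 was 0.710 times as high. Thus 3 of the 5 members passed the threshold, 1 higher and 2 lower at ZT15, where 8.02% of all genes passed (4.09% higher and 3.92% lower).

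Per3 is the Period family member that is dispensable for rhythmicity in the mouse and is rhythmic in many peripheral tissues. It lies on chromosome 4 from 151003652 to 151044665 of GRCm38 on the minus strand, within the span of Camta1, with which it shares no annotated exon base. In sedentary fl/fl mice Per3 was 22.8 CPM in the lowest mouse, 31.9 in the median and 51.1 in the highest at ZT3, and 9.21, 18.2 and 29.7 CPM at ZT15. In exercised fl/fl mice it was 22.4, 26.9 and 41.97 CPM at ZT3 and 8.52, 12.4 and 20.9 CPM at ZT15, with no overlap between the times. The HIF1α KO mice gave the same picture, and the times overlapped in them as they did in sedentary fl/fl mice. Sedentary HIF1α KO mice were at 15.9, 35.4 and 47.4 CPM at ZT3 and 10.4, 16.0 and 25.8 CPM at ZT15. Exercised HIF1α KO mice were at 17.7, 25.6 and 43.9 CPM at ZT3 and 8.69, 14.9 and 21.2 CPM at ZT15. Over all mice, 17 of 32 at ZT15 were below the lowest of 31 at ZT3, and 15 at ZT3 were above the highest at ZT15. The 4 ZT3 groups held the 4 highest mean levels of Per3, and only the step from the lowest ZT3 group (28.5 CPM, exercised HIF1α KO) to the highest ZT15 group (18.03 CPM, sedentary fl/fl) was larger than the SD within groups.

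The log2 fold change of Per3 (ZT15 against ZT3) was −1.02 ± 0.10 (SE, adjusted p = 3.31e-11) on average. It was −1.03 in sedentary fl/fl (adjusted p = 0.00247), −1.09 in exercised fl/fl (adjusted p = 0.00135), −1.10 in sedentary HIF1α KO (adjusted p = 0.000876) and −0.84 in exercised HIF1α KO mice (adjusted p = 0.0402), all by edgeR. Each of these single comparisons passed for few genes (1.88%, 1.18%, 0.479% and 0.663% in that order). In exercised HIF1α KO mice the call was lost without mouse 47 of the ZT15 group (log2 fold change −0.79, adjusted p = 0.103) and with the looser filter of 1 count in 1 library (−0.85, adjusted p = 0.101). Within the 4 blocks of mouse numbers the difference in mean log2 CPM was between −0.80 and −1.32.

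Cry1, a strong repressor of BMAL1 and CLOCK whose transcript peaks late among the clock repressors, moved the other way. It lies on chromosome 10 from 85131700 to 85185064 on the minus strand. In sedentary fl/fl mice Cry1 was 7.54, 9.29 and 9.76 CPM (lowest, median and highest) at ZT3 and 8.15, 12.7 and 18.4 CPM at ZT15. In exercised fl/fl mice it was 5.92, 8.28 and 12.6 CPM at ZT3 and 11.9, 14.7 and 19.6 CPM at ZT15. In both pairs of fl/fl groups the highest mouse at ZT3 was above the lowest at ZT15, and the lowest ZT15 value came from a library with 22 Cry1 counts (mouse 41, 2767721 counts in total). The HIF1α KO groups did not overlap. Sedentary HIF1α KO mice were at 7.40, 8.93 and 10.8 CPM at ZT3 and 12.0, 15.5 and 19.6 CPM at ZT15. Exercised HIF1α KO mice were at 5.71, 7.88 and 9.36 CPM at ZT3 and 11.1, 14.1 and 16.9 CPM at ZT15. Over all mice, 26 of 32 at ZT15 were above the highest mouse at ZT3.

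The log2 fold change of Cry1 was 0.78 ± 0.06 (SE, edgeR, adjusted p = 1.91e-15) on average. In the 4 single comparisons it was 0.61 in sedentary fl/fl (adjusted p = 0.00254), 0.86 in exercised fl/fl (adjusted p = 1.36e-05), 0.76 in sedentary HIF1α KO (adjusted p = 4.04e-05) and 0.89 in exercised HIF1α KO mice (adjusted p = 7.70e-06). Within the 4 blocks the difference in mean log2 CPM was between 0.48 and 1.01. As for Per3, the 4 groups of one time of day stood together, and the step between the lowest ZT15 mean (13.4 CPM, sedentary fl/fl) and the highest ZT3 mean (9.14 CPM, sedentary HIF1α KO) was the only one larger than the SD within groups.

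**Figure D2:**
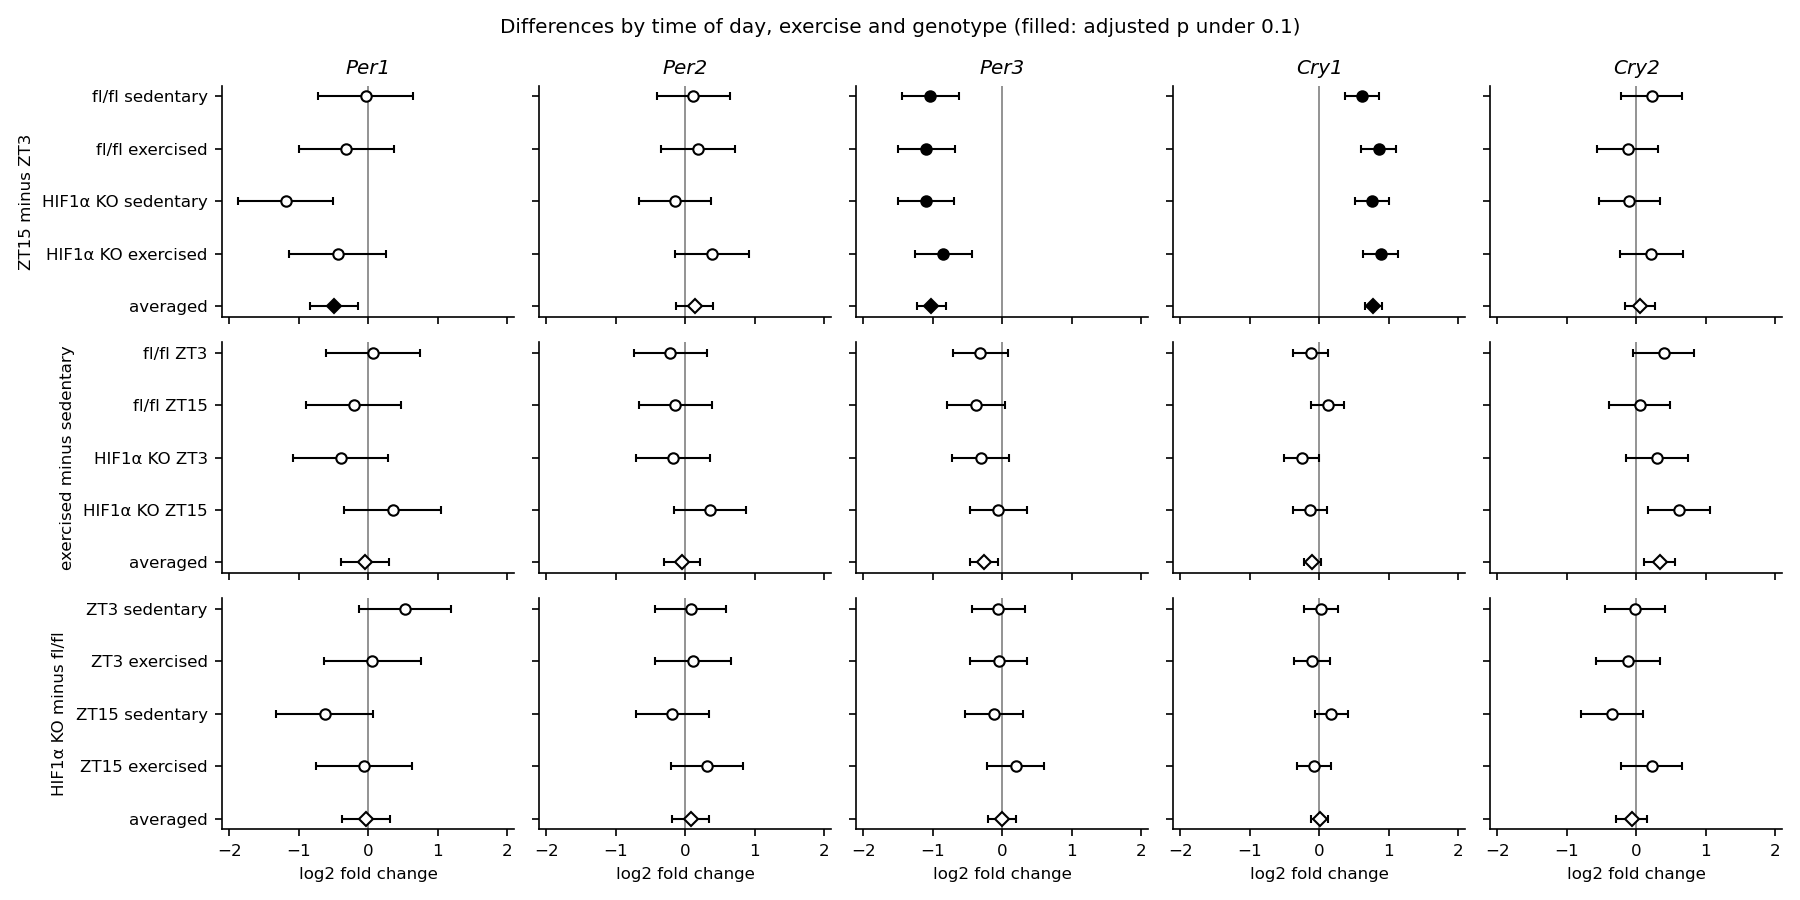
Log2 fold changes of the 5 members (columns) by time of day, exercise and genotype (rows of panels), in each of the 4 single comparisons (circles) and averaged over them (diamonds), with 95% intervals. Filled symbols passed an adjusted p under 0.1. Per3 and Cry1 by time of day were filled in all 4 comparisons, Per1 only in the average, and no symbol was filled for exercise or genotype.

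Per3 and Cry1 moved in opposite directions, and their ratio within a mouse was formed after the values were seen, as a description. The log2 ratio of Cry1 to Per3 CPM was −1.85 ± 0.52 (SD, n = 31) at ZT3, where it ranged from −2.68 to −0.55, and −0.07 ± 0.58 (SD, n = 32) at ZT15, where it ranged from −1.86 to 0.90. At ZT15, 26 of 32 mice were above the highest mouse at ZT3, the same number as for Cry1 alone, and 14 of 31 mice at ZT3 were below the lowest at ZT15. For Per3 alone 15 of 31 mice at ZT3 were above the highest at ZT15. In the other direction, Cry1 alone had 10 of 31 mice at ZT3 below the lowest at ZT15, and Per3 alone had 17 of 32 at ZT15 below the lowest at ZT3. Neither count of the ratio was thus above that of the better single gene, but neither gene alone reached both counts. The lowest ratio at ZT15 (−1.86), on which the count of 14 rests, was that of mouse 41, the library with 22 Cry1 counts. The next lowest was −0.88 (mouse 49, sedentary fl/fl).

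**Figure D3:**
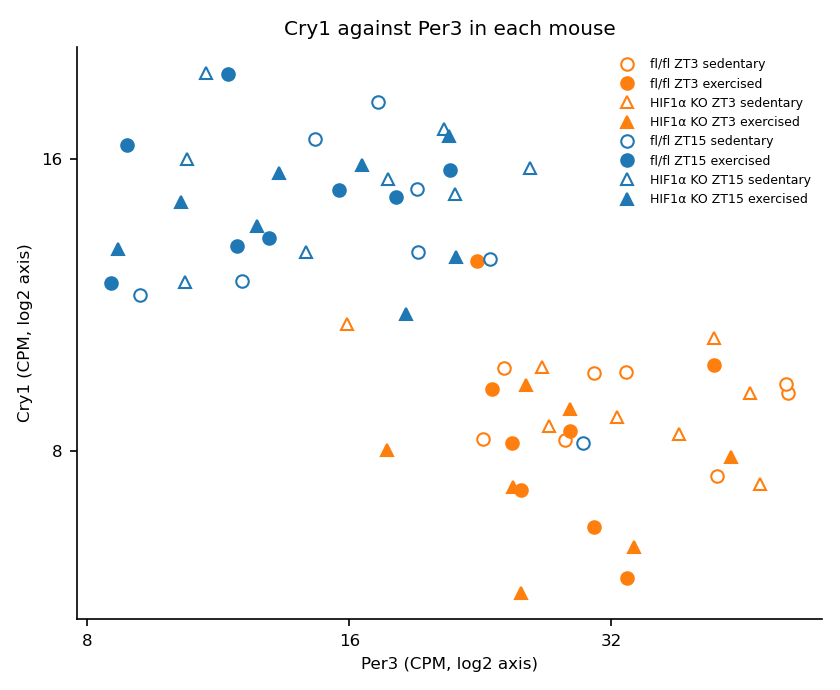
Cry1 against Per3 in each of the 63 mice (CPM, both axes on a log2 scale). Orange is ZT3 and blue ZT15, circles are fl/fl and triangles HIF1α KO, and filled symbols are exercised mice. Mice at ZT15 lie to the upper left (Cry1 median 14.7, Per3 median 15.1 CPM) and mice at ZT3 to the lower right (8.49 and 28.7 CPM), with genotypes and treatments mixed in each.

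Per1, the Period gene that responds fastest to light, hormones and activity, was lower at ZT15 by a smaller and less certain amount. It lies on chromosome 11 from 69095217 to 69109960 on the plus strand. In sedentary fl/fl mice it was 8.73, 17.2 and 26.7 CPM (lowest, median and highest) at ZT3 and 8.20, 12.998 and 49.3 CPM at ZT15. In exercised fl/fl mice it was 8.90, 19.3 and 24.4 CPM at ZT3 and 5.26, 13.1 and 29.7 CPM at ZT15. The times overlapped almost completely in fl/fl mice, and the 49.3 CPM came from mouse 8, the other 7 mice of its group being at most 15.6 CPM. In sedentary HIF1α KO mice Per1 was 9.90, 23.3 and 49.05 CPM at ZT3 and 4.61, 10.5 and 17.1 CPM at ZT15. In exercised HIF1α KO mice it was 10.7, 15.2 and 29.7 CPM at ZT3 and 7.88, 11.5 and 24.3 CPM at ZT15.

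Averaged over groups the log2 fold change of Per1 was −0.49 ± 0.17 (SE, edgeR, adjusted p = 0.0796). In the single comparisons it was −0.03 in sedentary fl/fl, −0.31 in exercised fl/fl, −1.19 in sedentary HIF1α KO and −0.44 in exercised HIF1α KO mice, and none passed (smallest adjusted p = 0.157, edgeR). The value in sedentary fl/fl mice rested on mouse 8 and was −0.50 without it (adjusted p = 0.503, edgeR). The averaged call was lost in 21 of 63 fits that each left out 1 library (adjusted p between 0.0100 and 0.150). Without mouse 8 it was −0.61 (adjusted p = 0.0100), and sedentary HIF1α KO mice then also passed (adjusted p = 0.0700, edgeR). It was also lost with a looser filter of 1 count in 1 library (adjusted p = 0.149), without the 3 libraries under 5000000 counts (adjusted p = 0.122) and in males or females alone (adjusted p = 0.411 and 0.234), with values between −0.48 and −0.55. Within blocks the difference in mean log2 CPM was between −0.26 and −0.75.

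Per2 and Cry2 did not pass by time of day. Per2, the Period gene whose loss shortens or abolishes rhythms in mice, lies on chromosome 1 from 91415982 to 91459324 on the minus strand and was 3.201 to 21.8 CPM at ZT3 (median 11.8) and 5.54 to 21.3 CPM at ZT15 (median 13.98). Its averaged log2 fold change was 0.14 (95% interval −0.13 to 0.40, edgeR, adjusted p = 0.638). Cry2, the second cryptochrome, lies on chromosome 2 from 92403646 to 92434043 on the minus strand and was 9.59 to 39.3 CPM at ZT3 (median 22.1) and 8.99 to 37.4 CPM at ZT15 (median 23.9). Its averaged log2 fold change was 0.05 (95% interval −0.17 to 0.28, adjusted p = 0.853). In the single comparisons Per2 was between −0.15 and 0.39 and Cry2 between −0.12 and 0.22. The antisense gene D930015M05Rik shares 295 exon bases with Cry2, and the strand setting of the counting is not given in the sources used here, so reads of these bases could not be assigned to a strand.

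Other clock genes were taken from lists of 26 genes by role, of which 25 were tested. By time of day 4 were higher at ZT15 and 5 lower, with a median log2 fold change of −0.05 against −0.003 over all genes. Among the activators Arntl (1.02) and Npas2 (1.08) were higher at ZT15, and Clock (0.03) did not pass. Both REV-ERB genes were lower (Nr1d1 −2.38 and Nr1d2 −0.64), and Rora and Rorb did not pass. Of the D-box genes Dbp (−1.42) and Tef (−0.22) were lower, their opponent Nfil3 was higher (1.17), and Hlf did not pass. Ciart (−1.72), a repressor also called CHRONO, was lower, and the repressors Bhlhe40 and Bhlhe41 did not pass. Of the 10 tested genes whose products act on PER or CRY proteins only Csnk1e, a casein kinase that phosphorylates PER, passed (0.19). Fbxl21, a ubiquitin ligase subunit, was removed by the filter. The difference in Per3 was thus smaller than in Dbp, Ciart and Nr1d1, and the difference in Cry1 was smaller than in Arntl and Nfil3, as log2 fold changes side by side and with no test between genes.

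Genes of other inputs to Per1 were given beside it. Of 6 genes of the glucocorticoid response, 4 were higher at ZT15 (Fkbp5 0.47, Tsc22d3 0.43, Zbtb16 0.34 and Sgk1 0.22) and Klf9 was lower (−0.19), whereas Per1 was lower. Of 6 genes of cAMP and immediate early signaling none passed by time of day. Their part in the level of Per1 was not tested. Markers of fibers (6 genes), slow fibers (3), blood (3), endothelium (2), macrophages (2) and adipocytes (2) and the satellite cell marker did not pass by time of day, and of 2 fibroblast markers Pdgfra was higher at ZT15. Fiber markers summed to 76351 to 148385 CPM at ZT3 and 77729 to 146679 CPM at ZT15. In bulk muscle a change in the number of cells that express a gene and a change in RNA per cell cannot be told apart.

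At 3 h after the run no member passed the threshold for exercise, averaged over genotype and time of day, where 2.84% of all genes passed. Cry2 came closest. In sedentary mice it was 8.99 to 34.4 CPM (median 20.8, n = 32) and in exercised mice 10.98 to 39.3 CPM (median 25.4, n = 31), so that the groups overlapped widely and the difference was within their spread. The averaged log2 fold change of Cry2 was 0.34 ± 0.11 (SE, 95% interval 0.12 to 0.56, edgeR, adjusted p = 0.106). With block in the model the value was 0.33 and passed (adjusted p = 0.0102, 4.39% of all genes called), as it did with the Wald test of DESeq2 (0.34, adjusted p = 0.0770, 2.86% called) and in 14 of 63 fits that left out 1 library. Exercised mice were higher in each of the 4 blocks, by 0.11 to 0.64 in mean log2 CPM.

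By group, Cry2 was 20.2 ± 6.21 CPM (SD, n = 8) in sedentary and 26.4 ± 5.97 CPM in exercised fl/fl mice at ZT3, and 23.6 ± 5.23 and 24.5 ± 5.86 CPM at ZT15. In HIF1α KO mice it was 19.9 ± 5.18 and 24.6 ± 10.5 CPM (n = 7) at ZT3 and 18.4 ± 6.65 and 28.6 ± 7.07 CPM at ZT15. The 4 exercised groups thus held the 4 highest means, although no step between neighbors in that order exceeded the SD within groups. The log2 fold changes were 0.40, 0.05, 0.30 and 0.62 (fl/fl at ZT3 and ZT15, HIF1α KO at ZT3 and ZT15), and none passed (smallest adjusted p = 0.406, edgeR), where 0.236%, 0.00%, 0.131% and 0.0591% of all genes passed in the same order. The largest of them, in HIF1α KO mice at ZT15, had an adjusted p = 0.604.

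The other members were nearer to 0 after exercise. Per3 was −0.26 (95% interval −0.47 to −0.06, edgeR, adjusted p = 0.241) and was lower in the exercised group in each of the 4 single comparisons, by 0.06 to 0.37 on the log2 scale. Cry1 was −0.10 (95% interval −0.22 to 0.03), Per1 −0.04 (−0.39 to 0.30) and Per2 −0.04 (−0.31 to 0.22). Over the 20 single comparisons of the 5 members none passed by edgeR or DESeq2, and 2 had an unadjusted p under 0.05.

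The exercised muscle did respond in other genes of the lists. Of 6 genes of cAMP and immediate early signaling 4 were higher in exercised mice, where 2.84% of all genes passed in either direction. These were Nr4a3 (log2 fold change 1.46), Ppargc1a (1.22), Sik1 (0.64) and Crem (0.42), while Fos (−0.18) and Nr4a1 (−0.31) were negative and did not pass. Of 6 glucocorticoid response genes only Fkbp5 passed (0.42). Of the 25 other clock genes 2 passed and were lower, the repressor Bhlhe40 (−0.56) and Nr1d2 (−0.15). The deubiquitinase gene Usp2 was 0.25 with an adjusted p = 0.104 by edgeR. Among markers of other cells the satellite cell marker Pax7 was lower in exercised mice (−0.46), at a median of 1.22 CPM in sedentary and 0.864 CPM in exercised mice, and the slow fiber markers, which did not pass, summed to 185 to 1146 CPM in sedentary and 177 to 2573 CPM in exercised mice. Their part in the values of the members was not tested.

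No member passed the threshold by genotype. Averaged over time of day and treatment, the log2 fold change of HIF1α KO against fl/fl was −0.03 for Per1 (95% interval −0.37 to 0.32), 0.08 for Per2 (−0.18 to 0.35), −0.01 for Per3 (−0.21 to 0.20), 0.01 for Cry1 (−0.12 to 0.13) and −0.06 for Cry2 (−0.29 to 0.16). All 5 had an adjusted p of 0.776 or more by edgeR, where 8.26% of all genes passed, and none had an unadjusted p under 0.05 in edgeR or DESeq2. The intervals were narrowest for Cry1 and widest for Per1. Cry1 was at 11.5 ± 3.56 CPM in fl/fl (SD, n = 32) and 11.7 ± 3.70 CPM in HIF1α KO mice (n = 31), and Per1 was at 16.6 ± 8.64 and 16.7 ± 9.68 CPM. In the 20 single comparisons by genotype the log2 fold changes were between −0.63 and 0.53, the ends both being Per1 in sedentary mice, at ZT15 and ZT3. The first of these was −0.17 without mouse 8. None passed by edgeR or DESeq2 and none had an unadjusted p under 0.05 in edgeR, while 0.400%, 1.43%, 0.0459% and 0.400% of all genes passed (ZT3 sedentary and exercised, ZT15 sedentary and exercised). In males alone Per2 was lower in HIF1α KO mice and passed (−0.32, edgeR, adjusted p = 0.0587, 14.7% of all genes called), at 12.1 ± 3.07 CPM (SD, n = 15) against 15.0 ± 3.33 CPM (n = 16) in fl/fl males, while in females it was 14.3 ± 5.09 CPM against 10.4 ± 4.25 CPM (n = 16 each) and did not pass. The call in males was lost in a fit of both sexes with a sex by genotype term (−0.32, edgeR, adjusted p = 0.225), and with block added to that fit the value was −0.12 (adjusted p = 0.818). Of the 25 other clock genes only Tef passed (0.15).

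Effects of time, exercise and genotype on the members were not shown to depend on each other. In 10 interaction comparisons for each of 5 members, none of 50 values passed by edgeR or DESeq2, where 0.00% of all genes passed by edgeR in each. A single value had an unadjusted p under 0.05. The time-of-day difference of Per1 in sedentary mice was −1.19 for HIF1α KO and −0.03 for fl/fl, a difference of −1.15 ± 0.48 on the log2 scale (SE, edgeR, adjusted p = 1). It was −0.70 without mouse 8. For Cry1 and Per3 the genotype difference in the time-of-day effect, averaged over treatment, was 0.09 each, with 95% intervals of −0.16 to 0.34 and −0.31 to 0.50.

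Sex was a covariate of the model. Per3 was lower in males (log2 fold change −0.36 ± 0.10, SE, edgeR, adjusted p = 0.00682), at a median of 18.1 CPM in 31 males and 24.9 CPM in 32 females, while 25.1% of all genes passed by sex. The other 4 members were between −0.02 and 0.14 and did not pass.

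Mice of the same group deviated together in some members and not in others. After removal of the group and sex means, Pearson's r of log2 CPM over 63 mice was 0.59 for Per2 and Cry2 (Spearman's rho 0.65), 0.58 for Per1 and Cry2 (rho 0.59), 0.47 for Per1 and Per2 (rho 0.52), 0.44 for Per2 and Per3 (rho 0.46) and 0.33 for Per3 and Cry2 (rho 0.38). By permutation of mice within groups these 5 of 10 pairs passed, with adjusted p of 0.0001, 0.0001, 0.000667, 0.00155 and 0.0174 for r and 0.0001, 0.0001, 0.000233, 0.0012 and 0.00854 for rho. The unadjusted p for r were 1e-05, 2e-05, 0.0002, 0.00062 and 0.00869, and 1e-05 is the smallest that 100000 shuffles can give. For rho they were 1e-05, 2e-05, 7e-05, 0.00048 and 0.00427. Without the 2 mice farthest from the median of the first gene, r was 0.58, 0.55, 0.49, 0.40 and 0.33. The same test was not run on pairs of other genes. These values therefore do not show that such co-variation is particular to the members.

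Cry1 stood outside this pattern, with r between −0.13 and 0.07 to the other 4 members, and Per1 and Per3 had r = 0.01. These 5 pairs did not pass (adjusted p of 0.462 or more for r by permutation). Part of the co-variation followed the mouse numbers. With the block means removed as well, r fell to 0.37 for Per2 and Cry2, 0.38 for Per1 and Cry2, 0.29 for Per1 and Per2, 0.35 for Per2 and Per3 and 0.22 for Per3 and Cry2, and by permutation the first 4 passed (adjusted p = 0.0253, 0.0253, 0.0543 and 0.0345) and the last did not (adjusted p = 0.201). Within single blocks of 15 or 16 mice r varied from 0.13 to 0.73 for Per2 and Cry2, from 0.13 to 0.61 for Per1 and Cry2, from −0.28 to 0.62 for Per1 and Per2, from −0.02 to 0.57 for Per2 and Per3, and from −0.20 to 0.53 for Per3 and Cry2.

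**Figure D4:**
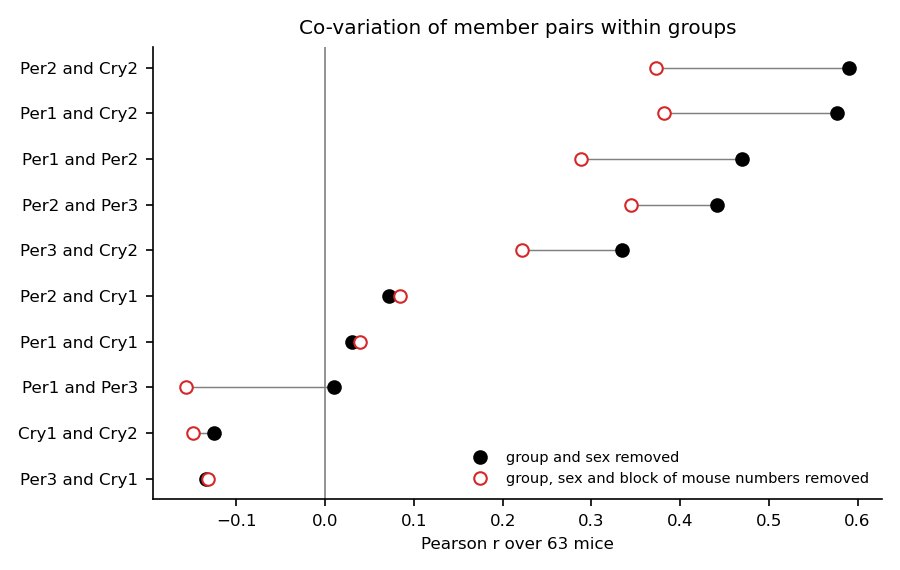
Pearson r of log2 CPM for the 10 pairs of members over 63 mice, after removal of group and sex means (filled) and of group, sex and block means (open). The 5 pairs with r of 0.33 or more all moved toward 0 when block was removed, and pairs with Cry1 stayed between −0.15 and 0.08.

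The block of mouse numbers passed as a term for 4 of 5 members, Cry2 (adjusted p = 8.40e-07, edgeR), Per2 (adjusted p = 0.000736), Per1 (adjusted p = 0.0180) and Per3 (adjusted p = 0.0211), and not for Cry1 (adjusted p = 0.185). Of all genes 53.9% passed the same test. Cry2 was 27.1 ± 5.89 CPM (SD, n = 16) in mice 1 to 16, 17.02 ± 4.95 (n = 16) in mice 17 to 32, 20.99 ± 6.22 (n = 15) in mice 33 to 48 and 27.8 ± 5.42 (n = 16) in mice 49 to 64. Per2 and Per1 were likewise lowest in mice 17 to 32 (10.3 ± 2.81 and 13.6 ± 10.5 CPM). The share of counts on mitochondrial rRNA had medians of 6.55%, 1.84%, 2.67% and 5.13% in the same order of blocks. Across the 63 mice, after removal of group and sex, this share on a log2 scale had r = 0.74 with Cry2, 0.55 with Per1, 0.52 with Per2, 0.20 with Per3 and 0.06 with Cry1, and r = 0.42, 0.32, 0.23, 0.04 and 0.11 with block removed too. The sum of the fiber markers had r = 0.61 with Cry2, 0.42 with Per1, 0.41 with Per2, 0.03 with Per3 and −0.16 with Cry1. With block removed too, r was 0.38, 0.27, 0.29, −0.09 and −0.07 in the same order. These are descriptions over libraries that share depth and composition, and their part in the values of the members was not tested.

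**Figure D5:**
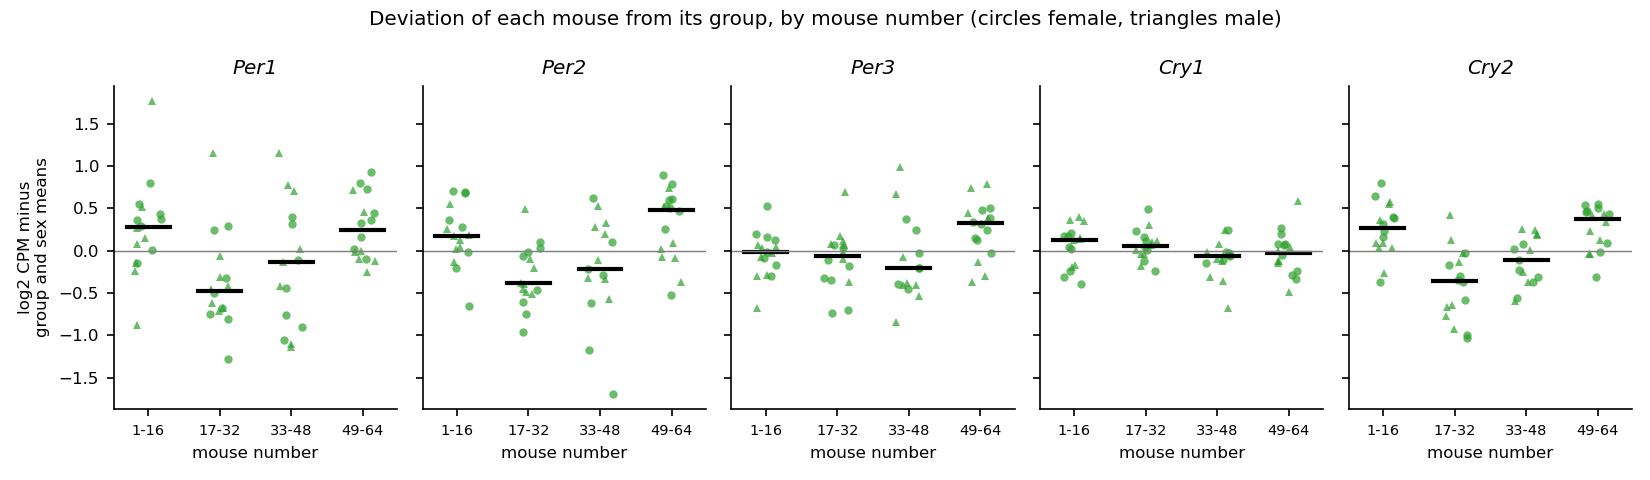
Deviation of each mouse from the fitted mean of its group, with a sex difference common to all groups (log2 CPM), for each member, by block of mouse numbers. Bars are medians, circles females and triangles males. Per1, Per2 and Cry2 lie lowest in mice 17 to 32, and Cry1 stays near 0 in all 4 blocks.

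The genes whose log2 CPM was most like that of each member over the 63 libraries were named as a description, from 11631 protein-coding genes with a mean of at least 1 CPM. These r include the group differences and the composition shared by a library. Per3 was most like Dbp (r = 0.82), Nr1d2 (0.73) and the DNA repair nuclease gene Apex2 (0.72), and most opposite to Nfil3 (−0.87). Cry1 was most like Lonrf3 (0.79), Wsb1 (0.78) and Ypel2 (0.76), and most opposite to Nr1d1 (−0.78). Cry2 was most like Usp2 (0.82) and the hexokinase gene Hk2 (0.79), and most opposite to Naa20 (−0.81), a subunit of an N-terminal acetyltransferase. Per1 was most like Tns2 (0.73), Tob2 (0.68) and the nuclear receptor gene Nr4a1 (0.66), and most opposite to Tspan13 (−0.61). Per2 was most like Adssl1 (0.67), Igfbp5 (0.66) and Tsc22d4 (0.66), and most opposite to Clock (−0.70). Among the members themselves Per3 and Cry1 had r = −0.66 over the same libraries, against r = −0.13 after removal of group and sex.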

How the data were processed

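Poly-A RNA of gastrocnemius muscle was sequenced from 64 mice. The authors used STAR for alignment to mm10 and featureCounts for counts per gene (versions, annotation release and strand setting are not given in the sources used here), and the deposited values are raw read counts with no normalization. Gene identifiers were matched to GENCODE M21 (55141 of 55401 had a symbol), and coordinates are 1-based on GRCm38. Groups came from the sample labels. No 2 libraries were identical.

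In R 4.3.3 with edgeR 4.0.16, filterByExpr (minimum count 10) kept 15241 genes, and robust quasi-likelihood models with group and sex were fitted over 63 libraries after TMM scaling. P values were adjusted within each comparison, and adjusted p under 0.1 passed. Intervals used 54 residual degrees of freedom. Log2 CPM used a prior count of 2. Co-variation was tested by 100000 two-sided permutations within groups, adjusted over 10 pairs (Python 3.11.15, scipy). The alternatives were all 64 libraries, no sex term, another filter, RLE factors, DESeq2 1.42.0, adjusted p under 0.05, blocks of 16 mouse numbers, removal of libraries under 5000000 counts, only the groups compared, and each sex alone. Leave-one-out fits, a sex by genotype term and the test of block were added after seeing the data. The edgeR fits were also run on simulated counts, and the outcome is not reported here.

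The members, gene lists and tests were chosen with earlier results of these data known. Named genes were the 5 members, list genes past the threshold by time or exercise, and for each member the 3 genes most like it and the 1 most opposite. Some genes that this rule or the lists hold are not reported here. Others named from the lists were named to complete a count. Counts limit precision most in the shallow libraries.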

Additional observations from a re-analysis of the deposited data

Results flagged for a closer look

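Among 40 sets of mice (5 members in 8 groups) 2 held a mouse that stood apart from the others of its group, and chance alone gives about 1 in 20. Both were Per1 in fl/fl males at ZT15. Mouse 8 of the sedentary group was at 49.3 CPM, with a gap of 0.819 of the group's range to the next mouse. The same mouse had the lowest Per3 (9.21 CPM) and the highest Cry2 (34.4 CPM) of its group. Mouse 37 of the exercised group was at 29.7 CPM, with a gap of 0.553 of the range.

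The effect of HIF1α KO on Per2 was 0.48 in females and −0.32 in males on the log2 scale, a male minus female difference of −0.80 ± 0.24 (SE, edgeR, adjusted p = 0.424, 0.0459% of all genes called). It was drawn to attention by an unadjusted p under 0.05 and does not pass over all genes. With block in the model the effect in males was −0.12 and the difference was −0.49 (adjusted p = 1 by edgeR, with an unadjusted p still under 0.05). Blocks were unevenly filled by sex and genotype, with 2 to 6 mice in each combination, and the part of block in this difference was not tested further.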

How the results depend on the processing

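Of 469 alternative values, 426 kept their direction and their side of the threshold, 17 no longer passed, 4 passed only under the alternative and 22 changed sign. Single comparisons made up 11 of the 17, 2 of the 4 and 8 of the 22. For Per3 and Cry1 by time of day, 87 of 88 alternatives in both sexes passed, and 10 of 20 in males or females alone passed, all 20 with the same sign. The averaged Per1 difference by time of day did not pass at an adjusted p under 0.05 (−0.49), with 1 count in 1 library (−0.50), without the libraries under 5000000 counts (−0.48), in males (−0.50) or in females (−0.55). Cry2 by exercise passed with blocks (0.33) and with DESeq2 (0.34). Per2 by genotype changed sign and passed in males (−0.32), but not in a fit of both sexes with a sex by genotype term (−0.32 in males, or −0.12 with blocks). The co-variation of Per3 and Cry2 no longer passed with block removed (r = 0.22).

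The other changes of sign were near 0 or in values that did not pass, and their cause was not tested. In females, Per1 was 0.087 by exercise, and by genotype Per1 was 0.31, Per3 0.10, Cry1 −0.042 and Cry2 0.14. With blocks, Per1 was 0.10 and Per3 0.014 by genotype, and by time of day in exercised fl/fl mice Per1 was 0.054 and Cry2 0.22 (0.022 in females). In males, by time of day in fl/fl mice, Per1 was 0.27 (sedentary) and 0.12 (exercised) and Per2 −0.10 (sedentary), and Cry2 by exercise in fl/fl at ZT15 was −0.15. Without the libraries under 5000000 counts, Per1 by time of day in sedentary fl/fl was 0.017, and by genotype Per3 was 0.033 and Cry1 −0.0013. By genotype Per3 was 0.0087 with no sex term and Cry1 −0.00041 with RLE. For the co-variation, r was −0.16 for Per1 and Per3 with block removed and −0.019 for Per1 and Cry1 without the libraries under 5000000 counts.

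With 1 library left out, Per1 by time of day was between −0.61 and −0.43, Per1 by exercise between −0.11 and 0.066, Per1 by genotype between −0.093 and 0.082, Per3 by genotype between −0.044 and 0.024, Cry1 by genotype between −0.016 and 0.025, and Cry2 by exercise between 0.30 and 0.37. No member passed in the 4 single comparisons by exercise or by genotype or in the interactions under any alternative run. No paired analysis was possible because each mouse number belongs to 1 group. Shallow libraries limit Cry1 and Per1 most, at 22 and 29 counts in the lowest.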
